A study of Mus musculus with 9 samples.

Results

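Specific and gelatinase granule genes encode the proteins that a developing neutrophil packs into its later granules. The 10 genes described here were given by name: Ltf, Camp, Lcn2, Ngp, Mmp8, Mmp9, Chil3, Olfm4, Wfdc21 and Cd177. All 10 were on the arrays as the only gene symbol of at least 1 probe set, among 18194 genes in all, and all 10 were among the 12826 genes with enough signal to be tested. Expression was measured on Affymetrix mouse arrays in sorted myeloid progenitors called the FrII fraction, which are lineage-negative, Sca-1-negative and c-Kit-positive with low or positive Mac1. The K/L group had 3 arrays of leukaemic animals with mutations on both Cebpa alleles, the Sox4 group had 3 arrays of animals whose leukaemia overexpressed the transcription factor gene Sox4, and 3 arrays came from wild type mice. All mice were of the C57/BL6 strain, 2 to 4 months old, and the tissue is given as blood. The extract protocol also gates on CD45.1-negative and CD45.2-positive cells, but only the source names of the leukaemic samples repeat that gate. The labels do not say how Sox4 was overexpressed, whether the arrays of a leukaemia came from separate leukaemias, or whether animals were pooled. Below, the groups are called K/L, Sox4 and wild type cells.

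Neutrophils fill their granules in steps. Primary granules with myeloperoxidase and elastase form first, specific granules with lactoferrin and cathelicidin form next, and gelatinase granules form last. C/EBPα, the product of Cebpa, is needed for entry into the granulocyte lineage, and its relative C/EBPε is known to drive specific granule genes later. FrII cells were sorted as progenitors. In wild type cells the mature neutrophil genes S100a9 and S100a8 averaged 13.47 and 12.64 on the log2 intensity scale. Of 13 such genes, 4 lay below the 40th percentile of all probe sets on all 3 wild type arrays. The values are thus not assigned to 1 stage of this programme. Whether later neutrophil cells were among the sorted cells was not tested.

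Of the sort gate genes, Kit and Ptprc gave clear signal in all groups. Kit, the receptor of the sort gate, averaged 9.22 in K/L, 9.18 in Sox4 and 9.17 in wild type cells on the log2 intensity scale. Ptprc, which encodes CD45, averaged 10.89, 10.83 and 11.33 in the same order. It was lower in both leukaemias than in wild type cells (limma, adjusted p = 0.00484 in K/L and 0.00252 in Sox4 cells). The primary granule gene Ctsg averaged 13.33 in K/L, 13.46 in Sox4 and 13.35 in wild type cells. Primary granule genes were not all alike, since Elane averaged 8.80 in K/L, 13.12 in Sox4 and 12.85 in wild type cells. Itgam, the Mac1 subunit gene, averaged 3.83 in K/L, 4.20 in Sox4 and 4.91 in wild type cells, near or below the 40th percentile of all probe sets of an array, which lay between 4.84 and 4.95. The gene Sox4 averaged 10.67 in K/L, 9.74 in Sox4 and 3.87 in wild type cells, so it was high in both leukaemias and higher in K/L than in Sox4 cells. Wild type array 3 stood apart from its group: 400 and 495 tested genes lay over 2-fold from the other wild type arrays, against 18 to 69 in all other pairs of one group. Xist and Kdm5d, known to be expressed from the inactive X and the Y chromosome, differed among the Sox4 arrays, with Xist at 12.10, 4.68 and 11.63 and Kdm5d at 4.14, 9.91 and 9.01 on arrays 1 to 3. All K/L and wild type arrays had low Xist (4.599 to 5.34) and high Kdm5d (9.60 to 10.86). The sex pattern thus differed within the Sox4 group and between it and the other groups, its part in the results was not tested, and whether n counts single mice is not known. Nothing shows that the arrays of a group came from independent cultures or leukaemias, and p-values measure the spread between these arrays. Arrays hold RNA of many cells, so fewer cells that express a gene and less RNA per cell cannot be told apart.

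Across the 10 genes, the pattern had 3 parts. Ltf, Camp, Ngp, Lcn2 and Wfdc21 were highest in Sox4 cells, Chil3 was highest in K/L cells, and Olfm4 and Cd177 were highest in wild type cells. The collagenase gene Mmp8 followed the first of these orders at low signal, and the gelatinase gene Mmp9 hardly varied. All values are log2 intensities of the probe set with the highest mean, and levels of different genes are not set against each other.

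**Figure D1:**
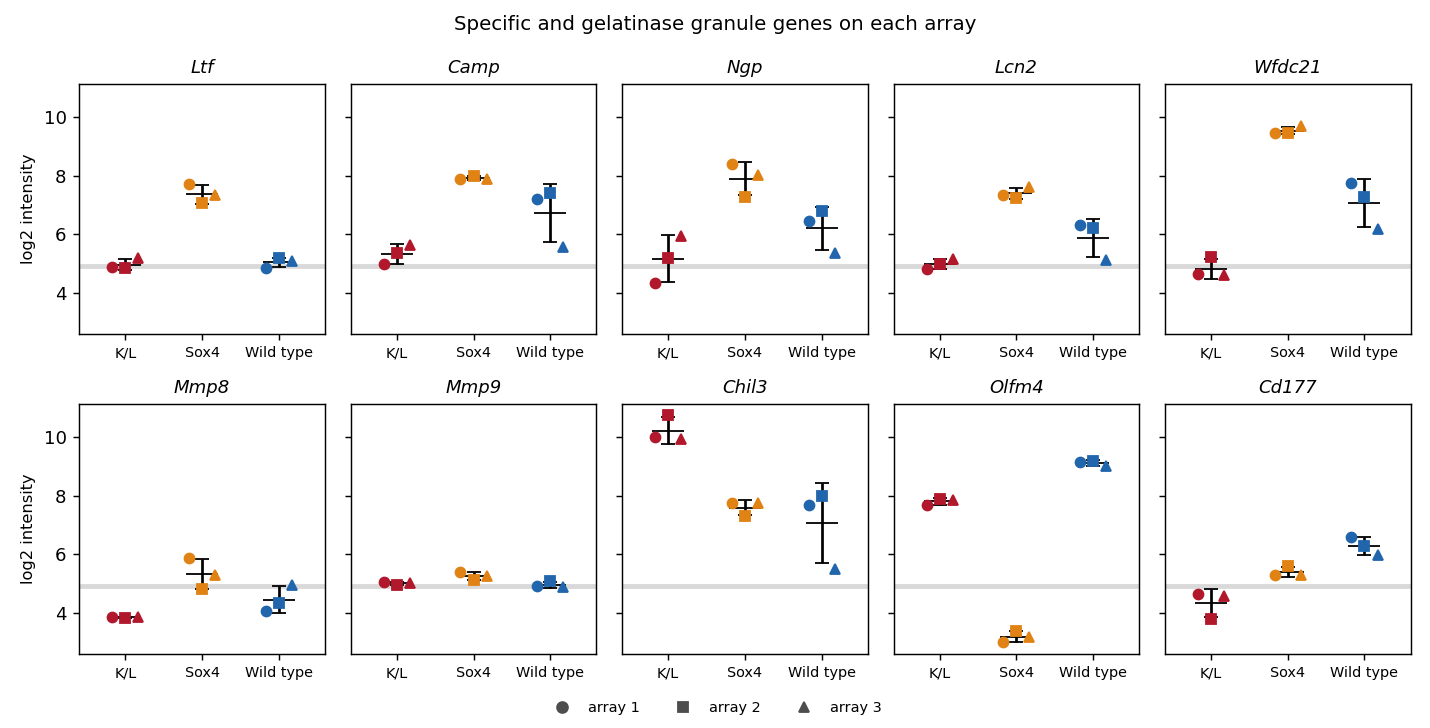
Log2 intensity (vertical axis) of the 10 specific and gelatinase granule genes on each of 9 arrays, with K/L, Sox4 and wild type cells side by side. Symbols mark arrays 1 to 3, horizontal bars with whiskers are the mean ± SD of 3 arrays, and the grey band spans the 40th percentile of each array (4.84 to 4.95). Olfm4 in Sox4 cells lies at 3.00 to 3.40, close to the floor of the data at 3, and wild type array 3 lies low for Camp, Ngp, Lcn2, Wfdc21 and Chil3.

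Ltf encodes lactoferrin, the iron-binding protein that defines the specific granule. It measured 4.87, 4.84 and 5.19 in K/L cells, 7.71, 7.06 and 7.34 in Sox4 cells, and 4.86, 5.18 and 5.09 in wild type cells. All Sox4 arrays lay above all others, while K/L and wild type arrays overlapped near the 40th percentile of the arrays. The Sox4 minus wild type difference was 2.33 ± 0.17 (SE), a 5.03-fold rise (limma, adjusted p = 4.17e-06), and the K/L minus wild type difference was -0.08 ± 0.17 (adjusted p = 0.742). K/L minus Sox4 was -2.41 ± 0.17 (adjusted p = 4.54e-06). With K/L and wild type cells both at low signal, the size of the Sox4 rise and the small K/L minus wild type difference are limited by it.

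Camp encodes the precursor of the antimicrobial peptide cathelicidin. It measured 4.99, 5.35 and 5.64 in K/L cells, 7.87, 7.996 and 7.88 in Sox4 cells, and 7.19, 7.41 and 5.58 in wild type cells. The Sox4 arrays agreed closely and lay above all others, and wild type array 3 lay within the K/L range. The difference was -1.40 ± 0.40 for K/L minus wild type (adjusted p = 0.0147), 1.19 ± 0.40 for Sox4 minus wild type (adjusted p = 0.0316) and -2.59 ± 0.40 for K/L minus Sox4 (adjusted p = 0.000872). The rise in Sox4 cells fell short of the threshold when any Sox4 array was left out (adjusted p = 0.0689 to 0.0804), and it was 0.62 in place of 1.19 without wild type array 3. The fall in K/L cells fell short without K/L array 1, wild type array 1 or wild type array 2 (adjusted p = 0.0532 to 0.0569) and was -1.97 without wild type array 3.

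Ngp encodes neutrophilic granule protein, a relative of the cathelicidins in sequence. It measured 4.35, 5.20 and 5.96 in K/L cells, 8.39, 7.27 and 8.02 in Sox4 cells, and 6.47, 6.78 and 5.37 in wild type cells. Sox4 arrays again lay above all others, and K/L and wild type arrays overlapped. The difference was 1.69 ± 0.46 for Sox4 minus wild type (adjusted p = 0.0129) and -2.72 ± 0.46 for K/L minus Sox4 (adjusted p = 0.00165). For K/L minus wild type it was -1.04 ± 0.46 (adjusted p = 0.0881), which passed without K/L array 3 (adjusted p = 0.0318) or wild type array 3 (adjusted p = 0.0234). The rise in Sox4 cells fell just short without Sox4 array 1 (1.44, adjusted p = 0.052).

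Lcn2 encodes lipocalin 2, which withholds iron from bacteria by binding their siderophores. It measured 4.81, 4.97 and 5.15 in K/L cells, 7.34, 7.25 and 7.60 in Sox4 cells, and 6.30, 6.22 and 5.14 in wild type cells. The groups kept the order of Camp, with wild type array 3 again within the K/L range. The Sox4 minus wild type difference was 1.51 ± 0.27 (2.84-fold, adjusted p = 0.00123) and K/L minus Sox4 was -2.42 ± 0.27 (adjusted p = 0.000109). K/L minus wild type was -0.91 ± 0.27 (adjusted p = 0.0181) and fell short without K/L array 1, wild type array 1 or wild type array 2 (adjusted p = 0.0601 to 0.0687).

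Wfdc21 encodes a small secreted protein with a whey acidic protein domain, a fold shared with leukocyte protease inhibitors. It measured 4.64, 5.21 and 4.61 in K/L cells, 9.47, 9.47 and 9.69 in Sox4 cells, and 7.76, 7.29 and 6.17 in wild type cells. None of the groups overlapped. Only 1 of the 3 K/L arrays was above the 40th percentile of its array, so the size of the differences from K/L cells is limited by low signal. K/L minus Sox4 was -4.72 ± 0.34 (adjusted p = 4.95e-06). It was higher in Sox4 than in wild type cells by 2.47 ± 0.34 (5.53-fold, adjusted p = 0.00024), and the K/L minus wild type difference was -2.25 ± 0.34 (adjusted p = 0.000408).

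The metalloproteases of the later granules gave little signal. Mmp8, the neutrophil collagenase gene, measured 3.87, 3.84 and 3.86 in K/L cells, 5.87, 4.83 and 5.30 in Sox4 cells, and 4.08, 4.33 and 4.96 in wild type cells. It entered the test with only 3 arrays above the 40th percentile, 2 of them from Sox4 cells, so that its differences rest on that group. K/L minus Sox4 was -1.47 ± 0.27 (adjusted p = 0.00249) and Sox4 minus wild type was 0.88 ± 0.27 (adjusted p = 0.0216), with overlapping arrays in the second case. The rise over wild type fell short without Sox4 array 1 or 3 or wild type array 1 or 2 (adjusted p = 0.0516 to 0.0798), while K/L minus wild type was -0.60 ± 0.27 (adjusted p = 0.0896) and just passed without Sox4 array 1 (adjusted p = 0.0491) or wild type array 1 (adjusted p = 0.0489).

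Mmp9 encodes gelatinase B, the enzyme that names the gelatinase granule. It measured 5.05, 4.97 and 5.04 in K/L cells, 5.39, 5.13 and 5.25 in Sox4 cells, and 4.94, 5.09 and 4.89 in wild type cells. The 9 arrays spanned 4.89 to 5.39, near the 40th percentile. Sox4 minus wild type was 0.29 ± 0.10 (adjusted p = 0.0411), a 1.22-fold difference that passed under 6 of 16 alternatives, K/L minus Sox4 was -0.24 ± 0.10 (adjusted p = 0.111) and K/L minus wild type was 0.05 ± 0.10 (adjusted p = 0.735). The other Mmp9 probe set averaged 4.55 in K/L, 4.73 in Sox4 and 4.36 in wild type cells, below the 40th percentile of the arrays.

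Chil3 encodes the chitinase-like lectin Ym1, which is made by neutrophils and also by activated macrophages, and which was first described as an attractant of eosinophils. It measured 10.01, 10.76 and 9.93 in K/L cells, 7.74, 7.30 and 7.75 in Sox4 cells, and 7.69, 8.01 and 5.51 in wild type cells. All K/L arrays lay above all others, and Sox4 and wild type arrays overlapped. K/L minus wild type was 3.16 ± 0.55 (8.95-fold, adjusted p = 0.00093) and K/L minus Sox4 was 2.63 ± 0.55 (6.2-fold, adjusted p = 0.00526). Sox4 minus wild type was 0.53 ± 0.55 (adjusted p = 0.456), and -0.25 without wild type array 3, where K/L minus wild type was 2.38. A further probe set is assigned to both Chil3 and its neighbour Chil4 and averaged 8.89 in K/L, 6.31 in Sox4 and 6.30 in wild type cells, so the copies are not separated there.

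Olfm4 encodes olfactomedin 4, a specific granule protein that marks a subset of neutrophils. It measured 7.68, 7.90 and 7.85 in K/L cells, 3.00, 3.40 and 3.19 in Sox4 cells, and 9.14, 9.20 and 9.01 in wild type cells. The groups stood far apart, and Sox4 array 1 was at the floor of the deposited values. Sox4 minus wild type was -5.92 ± 0.12 (adjusted p = 1.55e-09). K/L minus wild type was -1.31 ± 0.12 (2.47-fold lower, adjusted p = 1.7e-05), and K/L minus Sox4 was 4.62 ± 0.12 (adjusted p = 6.87e-09). None of the 3 Sox4 arrays was above the 40th percentile, so the sizes of both differences from Sox4 cells are limited by the floor and no fold is given for them.

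Cd177 encodes a surface protein that is stored in specific granules and presents proteinase 3 on human neutrophils. It measured 4.67, 3.80 and 4.57 in K/L cells, 5.30, 5.59 and 5.31 in Sox4 cells, and 6.60, 6.29 and 5.998 in wild type cells. The groups did not overlap, and all K/L arrays were below the 40th percentile. K/L minus wild type was -1.95 ± 0.23 (adjusted p = 8.46e-05), Sox4 minus wild type was -0.90 ± 0.23 (adjusted p = 0.00944) and K/L minus Sox4 was -1.05 ± 0.23 (adjusted p = 0.00714). Cd177 and Olfm4 were the only members that fell in both leukaemias, which share the wild type arrays they were compared with.

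**Figure D2:**
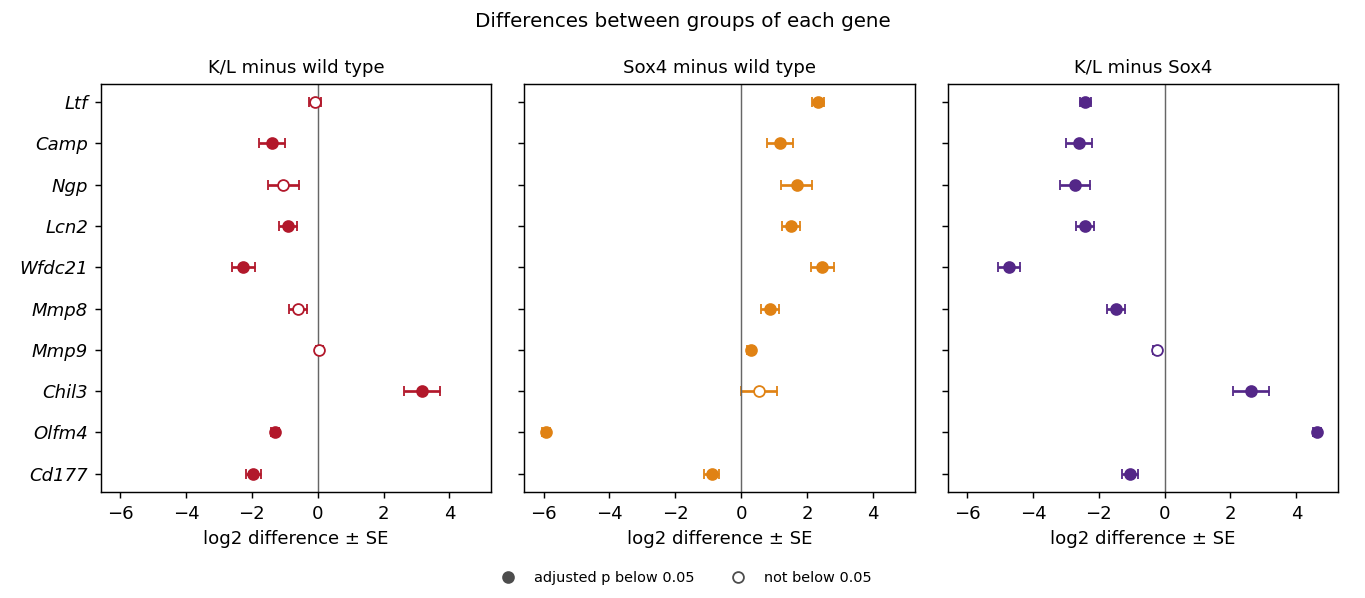
Log2 differences ± SE of the 10 genes (horizontal axis) for K/L minus wild type, Sox4 minus wild type and K/L minus Sox4 cells, from 1 limma fit of 9 arrays. Filled points have an adjusted p below 0.05. Ltf to Mmp9 lie right of 0 in the middle panel, Olfm4 and Cd177 lie left of it, and Chil3 lies right of 0 in both panels of K/L cells.

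Setting K/L against wild type cells asks how these genes stand in leukaemic progenitors with mutant Cebpa. Of the 10 genes, 1 rose (Chil3) and 5 fell (Camp, Lcn2, Olfm4, Wfdc21 and Cd177), and 4 did not pass the test. Over all tested genes 50.6 percent passed, so the share of members called was near the background. By direction, 5 of 10 were lower, against 21.6 percent of all genes, and 1 of 10 was higher, against 29 percent. The arrays of K/L and wild type cells did not overlap for 5 members, as for 58.1 percent of all tested genes. The median difference was -0.97 over the members and 0.06 over all tested genes. Without K/L array 1 or without wild type array 2, 3 members fell, and without wild type array 3, 6 fell.

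Sox4 against wild type cells puts the same question to the Sox4 leukaemia. Here 7 of 10 members rose (Ltf, Camp, Lcn2, Ngp, Mmp8, Mmp9 and Wfdc21), 2 fell (Olfm4 and Cd177), and Chil3 did not pass. Over all tested genes 47.8 percent passed, 26.7 percent higher and 21.1 percent lower. The arrays did not overlap for 8 members, as for 56.2 percent of all tested genes. The median difference was 1.03 over the members and 0.03 over all genes. The number of rises was 3 without Sox4 array 1, 4 without Sox4 array 3 and 6 without wild type array 3, with Ltf, Lcn2 and Wfdc21 past the test under all 17 alternatives.

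Set against each other, the leukaemias differed in 9 of 10 members: 7 were lower in K/L than in Sox4 cells, Chil3 and Olfm4 were higher, and Mmp9 did not pass. The background was 28.9 percent, with 14 percent lower and 14.9 percent higher. That split depends on the scaling: 1905 genes were higher and 1797 lower as deposited, and after median centring of the arrays 2546 were higher and 1456 lower. The median difference was -1.94 over the members against 0.03 over all genes. For all 10 members the K/L and Sox4 arrays did not overlap, as for 51.1 percent of all tested genes. These 9 calls were kept under every alternative in which the gene was tested.

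Wild type array 3 weighs on the comparisons with wild type. It lay at least 0.5 below the mean of wild type arrays 1 and 2 for 5 of the 10 genes (-2.34 for Chil3, -1.72 for Camp, -1.36 for Wfdc21, -1.25 for Ngp and -1.13 for Lcn2), against 12.37 percent of all tested genes. Mmp8 lay the other way, at 0.76 above that mean, and Ltf (0.07) and Olfm4 (-0.16) lay close to it. Without this array the difference between Sox4 and wild type cells was 1.13 for Lcn2, 1.27 for Ngp and 2.02 for Wfdc21, and for K/L cells it was -1.29 for Lcn2 and -2.71 for Wfdc21. Some genes outside the 10 that are named below were also low on it. Anxa1 was at 7.12, against 8.86 and 8.88 on wild type arrays 1 and 2, and Cebpb at 6.69, against 7.56 and 7.72. Differences without this array are not given for genes outside the 10. Among the array controls, Gapdh probes at the 3′ end exceeded those at the 5′ end, a measure that follows RNA integrity, by a ratio of 1.93 to 2 on K/L, 2.22 to 2.44 on Sox4 and 2.68 to 2.91 on wild type arrays. Actin probes did not separate the groups in this way, with ratios of 0.866 to 0.913 on K/L, 0.881 to 0.915 on Sox4 and 0.885 to 0.976 on wild type arrays. The part of RNA integrity in these results was not tested.

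**Figure D3:**
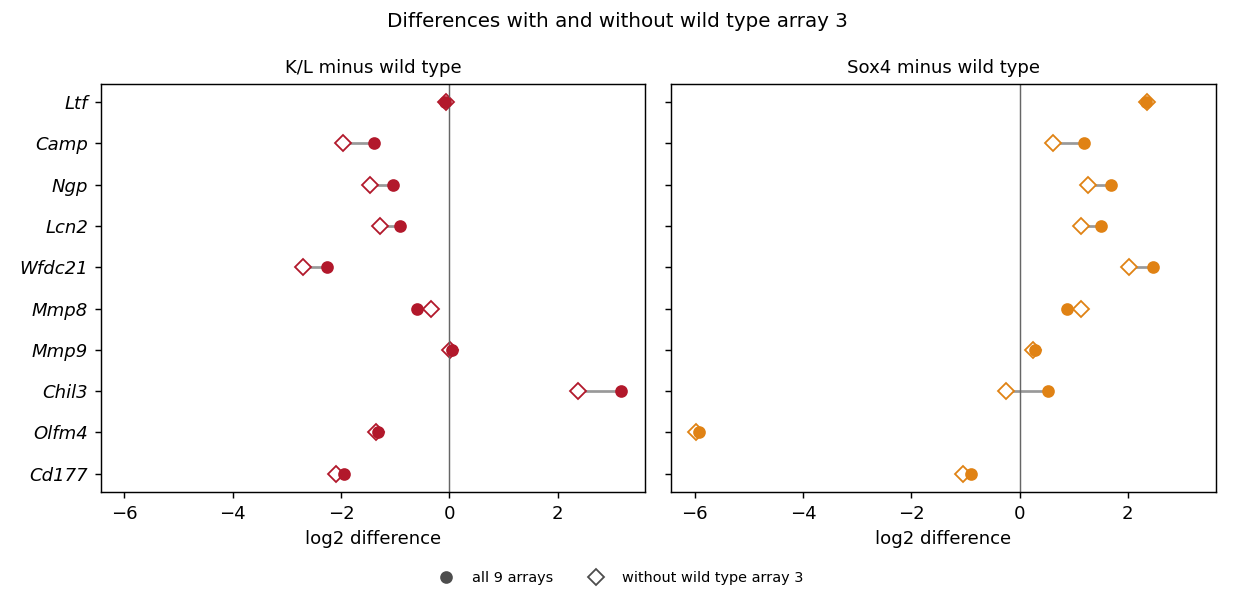
Log2 differences of the 10 genes (horizontal axis) for K/L minus wild type and Sox4 minus wild type cells, with all 9 arrays (filled circles) and without wild type array 3 (open diamonds). Chil3 crosses 0 in the Sox4 panel, from 0.53 with all arrays to -0.25, and Ltf and Olfm4 hardly move.

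Among the members, Camp and Lcn2 had the most similar profiles, with a root mean square difference of 0.30 between their log2 values over the 9 arrays after each was centred on its mean. Lcn2 and Ngp differed by 0.42 and Camp and Ngp by 0.45. For the 7 members whose group means spanned at least 2 on the log2 scale, the closest genes outside the list were found by the same measure. Ltf was closest to Ube2e2 (0.13) and Zfp939 (0.19), and Lcn2 to Pros1 (0.19), which encodes the anticoagulant protein S, and Dsel (0.19). The nearest to Camp were Klk8 (0.32) and Pros1 (0.34), and to Ngp they were Tns1 (0.45) and Sash1 (0.48). Wfdc21 was closest to the interferon-induced gene Ifitm1 (0.43) and to Il6st (0.43), which encodes the shared signalling receptor of the interleukin 6 family. Olfm4 was closest to Glyat (0.21) and Klhl41 (0.30), genes known from liver and muscle.

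Chil3 was closest to Prg3 (0.24), an eosinophil granule gene, and to Cpa3 (0.43), the carboxypeptidase gene of mast cells and basophils. Prg3 measured 10.45, 10.64 and 10.12 in K/L cells, 7.65, 7.34 and 7.44 in Sox4 cells, and 7.39, 7.78 and 5.68 in wild type cells. It shared the low wild type array 3 with Chil3, which follows from its choice by likeness over the same 9 arrays. The interleukin 5 receptor gene Il5ra was also highest in K/L cells (9.01 against 5.04 in Sox4 and 6.86 in wild type cells), whereas the eosinophil genes Prg2 and Epx were highest in Sox4 cells (9.43 and 7.31). Of 6 eosinophil markers on the arrays, 3 rose (Prg2, Prg3 and Il5ra) and 1 fell (Alox15) in K/L against wild type cells. The Alox15 difference was -0.71 ± 0.18 (adjusted p = 0.00775). Over all tested genes 29 percent rose and 21.6 percent fell in that comparison. The summed intensity of the 6 markers on the linear scale was 4186 to 4235 on K/L, 1275 to 1631 on Sox4 and 1422 to 2442 on wild type arrays. Epx, a defining marker, was below the 40th percentile on all K/L arrays. Of 7 mast cell and basophil markers on the arrays, 4 were tested. Cpa3 (3.47 ± 0.55, adjusted p = 0.000557) and Mcpt8 (1.09 ± 0.18, adjusted p = 0.00061) rose in K/L against wild type cells and Ms4a2 fell (-1.26 ± 0.20, adjusted p = 0.000576). Sums of this list were 4729 to 5422 on K/L, 1401 to 1896 on Sox4 and 934 to 1251 on wild type arrays. Each sum follows its genes of highest signal and is not a level shared by the list. On K/L arrays these were Cpa3 (mean 11.93) and Mcpt8 (10.02), and Siglecf (11.01) and Prg3 (10.40) among the eosinophil markers. Siglecf did not pass limma in K/L against wild type cells (0.36, adjusted p = 0.146), and Cpa3 and Prg3 were picked for their likeness to Chil3. Tpsb2 and Mcpt4 were below the 40th percentile on all 9 arrays. Of 10 tested monocyte and macrophage markers, 4 rose and 2 fell in K/L against wild type cells (median 0.44). The rises were those of Ctss, the cathepsin S gene (5.93 ± 0.24, adjusted p = 6.42e-08), Mpeg1 (2.44), Cd14 (1.43) and F13a1 (0.54), and the falls were those of Adgre1 (-0.41) and Arg1 (-0.38). Mrc1 and Retnla, macrophage genes known to accompany Chil3, were below the 40th percentile on all 9 arrays. The part of these cell types in the Chil3 result was not tested.

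**Figure D4:**
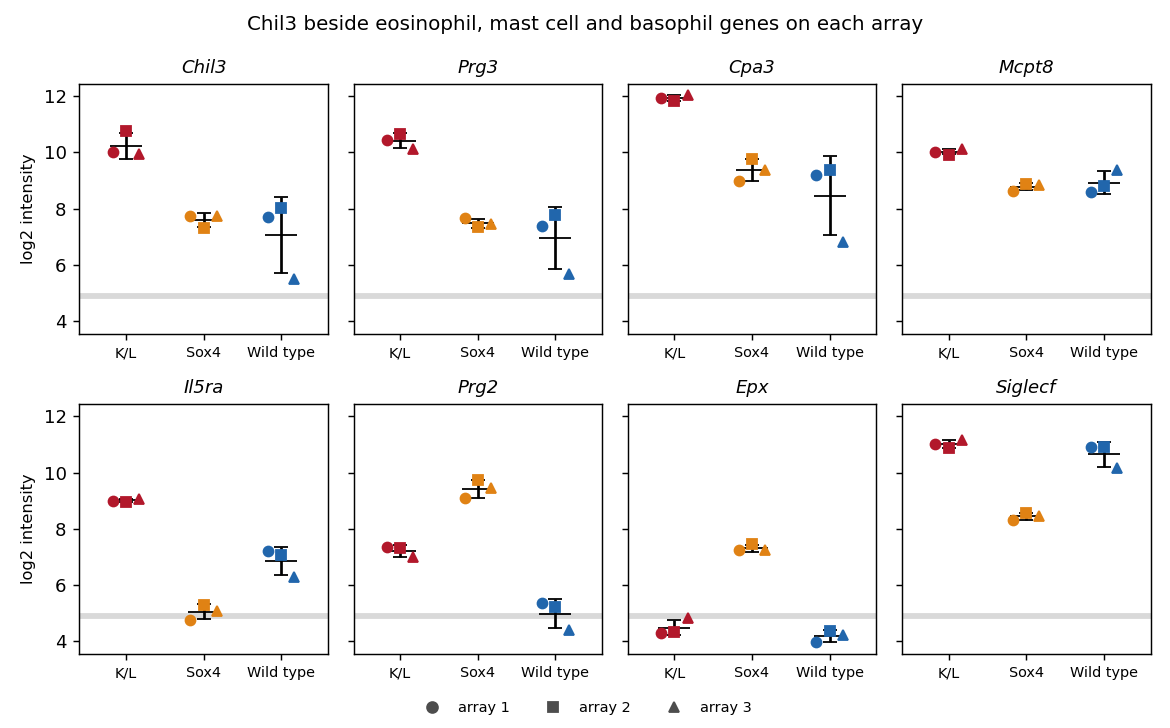
Log2 intensity (vertical axis) of Chil3, the eosinophil genes Prg3, Il5ra, Prg2, Epx and Siglecf, and the mast cell and basophil genes Cpa3 and Mcpt8 on each array of K/L, Sox4 and wild type cells, with mean ± SD of 3 arrays and the 40th percentile of the arrays as a grey band. Prg3 and Cpa3, picked for their likeness to Chil3 over these arrays, share its high K/L values and low wild type array 3. Prg2 and Epx are highest in Sox4 cells. The lists also hold genes that are not shown. Of these, Alox15 (-0.71) and Ms4a2 (-1.26) fell in K/L against wild type cells, and Cma1 did not pass.

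Monocyte genes moved in the same comparison as the granule genes that rose in Sox4 cells. Of 14 monocyte and macrophage markers on the arrays, 10 were tested, and 8 rose and 1 fell in Sox4 against wild type cells. Over all tested genes 26.7 percent rose and 21.1 percent fell in that comparison. Among the rises was Csf1r, the M-CSF receptor gene (1.62 ± 0.10, adjusted p = 9.06e-07). The fall was that of the macrophage marker Adgre1, at 5.08 in Sox4 against 8.30 in wild type cells (-3.22 ± 0.13, adjusted p = 8.94e-08). The summed linear intensity of the 14 markers was 4108 to 5127 on K/L, 8266 to 8833 on Sox4 and 2487 to 2660 on wild type arrays. The part of monocyte genes in the rise of the granule genes was not tested. Megakaryocyte markers rose in 5 of 5 tested genes in Sox4 cells, with Pf4 at 10.24 against 3.56 in wild type cells. Markers of T and NK cells had 0 of 3 tested genes past the limma test in any comparison, with Cd3e at an unadjusted p of 0.0414 for Sox4 against wild type cells, and 4 of 7 were below the 40th percentile on all arrays. Erythroid genes rose in 2 of 3 tested genes in Sox4 cells and in 0 of 3 in K/L cells. B cell markers were mixed, with Cd79a and Cd79b higher and Pax5 not past the test in K/L cells, and with Cd79b higher and Cd79a lower in Sox4 cells.

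Other proteins of the same granules and of secretory vesicles did not share 1 direction. Of 20 listed genes, 18 were on the arrays and 13 were tested. For the counts that follow, the share of all tested genes that passed against wild type was 50.6 percent in K/L and 47.8 percent in Sox4 cells. In K/L against wild type cells 1 rose and 6 fell, with the haptoglobin gene Hp at -3.48 ± 0.09 (adjusted p = 2.8e-09) and the lysozyme gene Lyz2 at -1.51 ± 0.10 (adjusted p = 1.88e-06). In Sox4 against wild type cells 3 rose and 6 fell. Hp rose by 0.74 ± 0.09 (adjusted p = 0.000103) and Anxa1, an anti-inflammatory protein of late granules, by 2.41 ± 0.39 (adjusted p = 0.000621), while Pglyrp1, the specific granule gene of a peptidoglycan-binding protein, fell to 9.76 in Sox4 cells against 11.31 in wild type cells (-1.55 ± 0.19, adjusted p = 0.000114). The median difference of the 13 was -0.68 in K/L and -0.28 in Sox4 cells against wild type. The cathelicidin and lactoferrin genes thus rose in Sox4 cells while the specific granule gene Pglyrp1 and Olfm4 fell.

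The earlier and the later ends of the neutrophil programme were read from separate lists. As background, 50.6 percent of all tested genes passed in K/L and 47.8 percent in Sox4 cells against wild type. Primary granule genes rose in 4 and fell in 5 of 12 tested genes in K/L cells (median -0.11) and rose in 5 and fell in 2 in Sox4 cells (median 0.25), against wild type in both cases. The neutrophil elastase gene Elane averaged 8.80 in K/L, 13.12 in Sox4 and 12.85 in wild type cells, with a K/L minus wild type difference of -4.04 ± 0.17 (adjusted p = 8.05e-08). The list also counts Hdc, which encodes the enzyme that makes histamine and does not mark primary granules alone. Hdc averaged 5.53 in K/L, 10.12 in Sox4 and 11.05 in wild type cells (K/L minus wild type -5.52 ± 0.16, adjusted p = 5.7e-09). Among the mast cell and basophil genes, Ms4a2 also fell in K/L cells, whereas Cpa3 and Mcpt8 rose. Cst7 (1.18) and Ctsc (0.90) rose in K/L against wild type cells, and Mpo averaged 13.81 in K/L, 13.90 in Sox4 and 13.88 in wild type cells. Fcnb, the ficolin B gene, resembled Ltf in its order, with 5.06 in K/L, 8.04 in Sox4 and 5.21 in wild type cells. Mature neutrophil genes fell in 5 of 10 tested genes in K/L cells and rose in 3, and fell in 4 and rose in 0 in Sox4 cells. S100a8, whose product is a subunit of the calprotectin complex, averaged 4.64 in K/L, 10.45 in Sox4 and 12.64 in wild type cells. It was thus lower in Sox4 than in wild type cells, unlike Ltf, Camp, Ngp, Lcn2 and Wfdc21. Not all of this list did so: Cxcr2 had the order of Camp, with 4.73 in K/L, 6.69 in Sox4 and 5.98 in wild type cells. Its Sox4 minus wild type difference did not pass limma (0.72, adjusted p = 0.168). The rises in K/L cells were those of Il1r2 (1.32), Padi4 (0.90) and Mxd1 (0.72).

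Of 11 regulators of granulocyte genes, 1 was higher (Rara) and 3 were lower (Klf5, Irf8 and Csf3r) in K/L than in Sox4 cells, and 7 did not pass in that comparison. Over all tested genes 28.9 percent passed there. Cebpa averaged 10.56 in K/L, 10.58 in Sox4 and 9.59 in wild type cells, and Cebpb, which acts in emergency granulopoiesis, averaged 8.53, 8.57 and 7.33 in the same order. Both rose in each leukaemia against wild type, and between the leukaemias they differed by -0.02 ± 0.13 (Cebpa, adjusted p = 0.933) and -0.04 ± 0.23 (Cebpb, adjusted p = 0.928). Cebpd rose in Sox4 cells (0.35 ± 0.13, adjusted p = 0.0449). Gfi1, a repressor needed for neutrophil formation, fell in both (-0.63 ± 0.11 in K/L, adjusted p = 0.00103, and -0.45 ± 0.11 in Sox4 cells, adjusted p = 0.00764), as did Klf5 (-1.43 in K/L and -0.90 in Sox4 cells). Csf3r, the G-CSF receptor gene, fell in K/L cells (-0.51 ± 0.18, adjusted p = 0.0356). Runx1 rose in both leukaemias against wild type (0.47 in K/L and 0.73 in Sox4 cells), Rara rose in K/L cells (0.88), and Spi1 and Lef1 did not pass in either. Irf8, which favours monocytes over granulocytes, rose by 1.49 ± 0.41 in K/L cells (adjusted p = 0.0126) and by 4.03 ± 0.41 in Sox4 cells (adjusted p = 3.33e-05). Wild type array 3 lay low for Irf8, at 5.54 against 7.38 and 7.33 on wild type arrays 1 and 2, which adds to both rises. Against wild type, 5 of the 11 rose and 3 fell in K/L cells, and 5 rose and 2 fell in Sox4 cells. The shares of all tested genes that passed were 50.6 percent in K/L and 47.8 percent in Sox4 cells. Cebpe was not analysed here.

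Partners and inhibitors of the granule proteins were measured too. Timp2, an inhibitor of metalloproteases, averaged 5.39 in K/L, 6.57 in Sox4 and 9.20 in wild type cells, and the membrane-bound inhibitor gene Reck averaged 3.56, 3.75 and 5.23 in the same order. Both fell in each leukaemia against wild type, with Timp2 differences of -3.81 ± 0.18 in K/L and -2.63 ± 0.18 in Sox4 cells. Slc22a17, which encodes a receptor of lipocalin 2, changed by -1.54 ± 0.17 in K/L (adjusted p = 6.09e-05) and by -2.004 ± 0.17 in Sox4 cells (adjusted p = 1.18e-05). Pecam1, a binding partner of human CD177, averaged 10.55 in K/L, 8.32 in Sox4 and 10.26 in wild type cells, and fell in Sox4 against wild type cells (-1.93 ± 0.14, adjusted p = 4.33e-06). Of 13 such genes, 7 were tested, with 1 rise and 3 falls in K/L cells and 2 rises and 4 falls in Sox4 cells. Genes of granule traffic and release rose in 8 and fell in 3 of 15 in K/L cells, including Stx11 (1.21 ± 0.14) and Sytl1 (1.38 ± 0.21) among the rises and Lyst (-1.56 ± 0.11) among the falls. In Sox4 cells 3 of these rose and 3 fell. Beside these counts against wild type, 50.6 percent of all tested genes passed in K/L and 47.8 percent in Sox4 cells.

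The 10 genes lie on 6 chromosomes in the RefSeq annotation of GRCm38.p6, where Camp, Ngp and Ltf share a stretch of chromosome 9 in that order. There are 29 protein-coding genes between Camp and Ltf, Ngp among them, and 19 others of these were tested. Of the 19, 7 rose and 3 fell in Sox4 against wild type cells (median 0.15), and in K/L against Sox4 cells 3 were higher and 0 lower at an adjusted p under 0.05 in limma. Shares of all tested genes that passed were 47.8 percent in the first comparison and 28.9 percent in the second. The next values are for the same 19 genes. The largest rise among them in Sox4 cells was that of Nbeal2 (1.01 ± 0.27), a granule traffic gene, against 2.33 for Ltf. Wild type array 3 lay low for Nbeal2, at 5.88 against 7.10 and 7.05 on wild type arrays 1 and 2, which adds to its rise. Map4, also between them, rose by 0.83. Mmp8 also lies on chromosome 9, in a cluster of metalloprotease genes, and Mmp9 and Lcn2 both lie on chromosome 2.

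To show the sequence around the starts of genes that moved together and of those that did not, promoter windows of 5 members are printed: Ltf, Camp and Ngp, which rose in Sox4 cells, Olfm4, which fell there, and Chil3, which rose in K/L cells. Each runs from 250 bases before the RefSeq gene start to 50 bases after its start in GRCm38.p6, 5′ to 3′ on the strand of the gene, and capitals mark matches to the C/EBP core TTNNGNAA on either strand (TTNCNNAA on the other).
Ltf (chr9:111019042-111019341, plus strand): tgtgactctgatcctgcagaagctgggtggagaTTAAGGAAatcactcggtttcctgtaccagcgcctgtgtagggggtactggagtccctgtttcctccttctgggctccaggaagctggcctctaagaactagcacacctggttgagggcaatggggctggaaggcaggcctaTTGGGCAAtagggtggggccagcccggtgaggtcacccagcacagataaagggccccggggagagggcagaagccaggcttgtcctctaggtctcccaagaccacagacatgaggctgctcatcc
Ngp (chr9:110419558-110419857, plus strand): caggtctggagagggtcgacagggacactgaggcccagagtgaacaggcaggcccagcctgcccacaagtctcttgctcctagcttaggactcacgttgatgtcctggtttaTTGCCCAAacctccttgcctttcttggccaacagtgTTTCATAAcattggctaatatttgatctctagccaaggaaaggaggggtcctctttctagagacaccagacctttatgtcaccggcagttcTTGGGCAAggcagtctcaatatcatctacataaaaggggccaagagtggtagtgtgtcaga
Camp (chr9:109849407-109849706, minus strand): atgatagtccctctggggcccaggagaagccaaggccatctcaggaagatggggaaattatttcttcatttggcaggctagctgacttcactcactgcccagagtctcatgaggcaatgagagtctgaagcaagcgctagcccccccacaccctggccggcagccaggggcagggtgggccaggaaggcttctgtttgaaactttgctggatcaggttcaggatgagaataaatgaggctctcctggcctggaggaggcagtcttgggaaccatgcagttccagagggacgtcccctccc
Olfm4 (chr14:80000052-80000351, plus strand): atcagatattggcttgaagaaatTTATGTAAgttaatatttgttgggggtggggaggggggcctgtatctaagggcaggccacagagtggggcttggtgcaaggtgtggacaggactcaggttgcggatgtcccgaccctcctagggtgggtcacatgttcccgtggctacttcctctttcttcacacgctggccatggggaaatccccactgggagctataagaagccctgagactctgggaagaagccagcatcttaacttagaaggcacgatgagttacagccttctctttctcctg
Chil3 (chr3:106167515-106167814, minus strand): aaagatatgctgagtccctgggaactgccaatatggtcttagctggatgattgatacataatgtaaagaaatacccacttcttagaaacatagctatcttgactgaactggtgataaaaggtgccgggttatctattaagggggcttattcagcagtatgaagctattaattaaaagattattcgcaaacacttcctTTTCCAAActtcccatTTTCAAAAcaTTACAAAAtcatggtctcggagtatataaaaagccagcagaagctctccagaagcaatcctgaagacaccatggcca
A window was held for 8 of the 10 members, and Mmp9 and Wfdc21 had none in the table used. The C/EBP core was found in 7 of the 8, against 40.7 percent of 32807 promoter windows of the same length. The exception was Camp, which rose in Sox4 against wild type cells. Of the 7 with the core, Ltf, Lcn2, Ngp and Mmp8 also rose there. Olfm4 and Cd177 fell, and Chil3 did not pass. Ngp and Chil3 held 3 matches each, Ltf and Mmp8 2 each, and Olfm4, Lcn2 and Cd177 1 each, so that genes with opposite changes held the motif. In Ltf the match nearest to the start read TTGGGCAA, at 75 to 68 bases before it, and the same letters stood 11 to 4 bases before the start of Ngp. A core of the PU.1 motif, GAGGAA, was in 5 of 8 windows (Cd177, Lcn2, Ltf, Mmp8 and Olfm4) against 28.3 percent of all windows. TATAAA, the letters of the TATA box, was in 3 of 8 (Cd177, Chil3 and Mmp8) against 13.6 percent. Both were searched on both strands and neither overlapped a C/EBP match. The TATAAA match of Cd177 lay 40 to 35 bases before the gene start. Those of Chil3 and Mmp8 lay across the annotated start, the one of Mmp8 on the opposite strand. A match describes letters and is not shown to be a bound site.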

How the data were processed

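The authors deposited 1 table of intensity values on a linear scale for 45101 probe sets and 9 arrays, with a floor of 8. The submitters' processing notes name RMA, a method that corrects background, normalises and summarises probes. Its version is not stated in the material used. Biotin-labelled cRNA was made from 5 ug of total RNA, per the labels' protocols. Values were log2 transformed. A platform annotation gave gene names: 34958 probe sets had 1 symbol, 932 several and 9211 none, and those 34958 were used. Each gene took its probe set of highest mean, avoiding _x_at sets where possible, and was tested if at least 3 arrays exceeded the 40th percentile of their array. limma 3.58.1 in R 4.3.3 was fitted to all 9 arrays with group as the term (6 residual and 3.71 prior degrees of freedom), with Benjamini-Hochberg adjustment over 12826 genes at 0.05. A two-sided exact permutation test of 3 against 3 cannot go below 0.1, so none is given. The procedure was tested on simulated data.

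Members, gene lists and tests were chosen with earlier results of these data known. Named genes were all members, regulators and sort gate genes, up to 4 of each other list with the smallest p in a comparison, Sox4, and the 2 closest genes by profile for members whose group means span at least 2. Mpo, Ctsg, Adgre1, Arg1, Mrc1, Retnla, Tpsb2, Mcpt4, Cxcr2, Mxd1, Xist and Kdm5d were named after their values were seen. Profile distance, promoter motifs and gene order were computed in Python 3.11.15 from RefSeq tables of GRCm38.p6. Alternatives changed the scaling, the filter, the probe set, the samples, the spread model and the replicate block. The number of arrays limits the precision.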

Additional observations from a re-analysis of the deposited data

How the results depend on the processing

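Of 30 differences (10 genes in 3 comparisons), 22 kept their side of the threshold under all 17 alternatives (16 for Mmp8, Mmp9 and Cd177, which the stricter filter removed). The other 8 were those of Camp, Mmp8 and Ngp in both comparisons with wild type, Lcn2 in K/L and Mmp9 in Sox4 against wild type. With the stricter filter 7 of 10 members were tested, so every count that held Mmp8, Mmp9 or Cd177 was smaller. For example, 1 member fell in Sox4 against wild type cells in place of 2. The median K/L minus Sox4 difference of the members was -2.42 with this filter in place of -1.94. Leaving out 1 array at a time, 3 to 6 members rose in Sox4 and 3 to 6 fell in K/L against wild type cells, while 1 rose in K/L cells, 2 fell in Sox4 cells, and 2 were higher and 7 lower in K/L than in Sox4 cells throughout. Ltf in K/L against wild type, not past the test, was 0.017 with each array centred on its median and 0.016 with quantile normalisation in place of -0.08. Chil3 in Sox4 against wild type, also not past it, was -0.25 without wild type replicate 3 in place of 0.53, with a range of -0.25 to 1.001 over the arrays left out, and the cause was not tested. With no filter on low values the rises of Camp (adjusted p = 0.0761) and Mmp8 (adjusted p = 0.0531) in Sox4 against wild type cells fell short in limma, and so did Camp with only the 2 groups compared (adjusted p = 0.0543). The arrays of different groups share replicate numbers but are not paired by them (correlation of the deviations of same-numbered arrays -0.02 to 0.08). With the replicate block 6 members rose in Sox4 against wild type cells in place of 7, the one lost being Mmp9 (0.29, adjusted p = 0.067, with 0.0106 to 0.149 over its alternatives), and no other count of members changed. Signals near or below the 40th percentile limit what can be said of Mmp8 and Mmp9. The same limit holds for Ltf in K/L and wild type cells, for Cd177 and Wfdc21 in K/L cells and for Olfm4 in Sox4 cells. In K/L cells Lcn2 and Ngp also lay near it, at mean percentiles of 42.1 and 44.3.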
